A study of Homo sapiens with 8 samples.

Results

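The 37 genes described here encode the subunits of the proteasome, its activators and inhibitor, and the chaperones that assemble it. They were taken by name: every gene whose symbol starts with PSMA, PSMB, PSMC, PSMD, PSME, PSMF or PSMG followed by a number and that had a probe set annotated with 1 gene symbol, apart from genes not analysed here. That rule gave 60 of the 22215 probe sets tested and 37 of the 11963 genes, each gene being read from its brightest probe set. The members fell into 6 classes: 6 alpha ring genes, 8 beta ring genes, 5 ATPases of the cap, 9 other cap subunits, 5 assembly chaperones, and 4 activators and inhibitors. All 37 representative probe sets were above background on all 8 arrays.

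The arrays measured transcript levels in 2 human acute myeloid leukemia cell lines, THP-1 (monocytic) and HL-60 (promyelocytic), on the Affymetrix HU-133A design. Each line was given diclofenac, a non-steroidal anti-inflammatory drug that inhibits cyclooxygenases, at 100 µM, or DMSO, its solvent, and was harvested after 48 h. The 4 groups were THP-1 cells with diclofenac, THP-1 cells with DMSO, HL-60 cells with diclofenac and HL-60 cells with DMSO, with 2 arrays each that the labels call biological replicates. Each line is a single established culture that stands for 1 donor's leukemia, no normal cell was included, and both treatments were given in the same serum-supplemented medium.

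The proteasome is the barrel-shaped protease that degrades proteins tagged with ubiquitin. Stacked alpha and beta rings form the core, whose catalytic sites lie inside on beta subunits, while a regulatory cap of ATPases and other subunits recognises, unfolds and feeds in the substrate. Transcription of its subunit genes is raised together by NRF1 (the product of NFE2L1) when the protease is inhibited and, in part, by NRF2 (the product of NFE2L2) under oxidative stress, and interferon exchanges catalytic subunits for inducible ones. Blood cancers are the setting in which proteasome inhibitors are used as drugs.

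One array differed from the other 7, that of THP-1 DMSO replicate 2. The median of its bacterial control probe sets, which have no target in the samples, was 78 intensity units, against 5.6 to 24.6 on the others, and 50.32% of its probe sets were above background, against 66.36% to 72.14%. Its correlation with the other THP-1 DMSO array was 0.898 over all probe sets, while the pairs of the other groups had 0.977 to 0.984. The median difference between the 2 THP-1 DMSO arrays was 0.16 log2 units over the members and 0.45 over all genes. In the pairs of the other groups it was 0.07 to 0.09 over the members and 0.15 to 0.20 over all genes. PSMD3, PSMD9 and PSMD5 lay 0.93, 0.73 and 0.51 log2 units below the other 3 THP-1 arrays on it, and PSME3 lay 0.56 above them. Of the genes used to check the labels, HLA-DRA was at 562.5 to 563.3 in THP-1 cells with diclofenac, 478 to 575.1 in THP-1 cells with DMSO, 8.4 to 10.2 in HL-60 cells with diclofenac and 38.2 to 59.9 in HL-60 cells with DMSO. MPO, a defining enzyme of promyelocytes, was at 127.3 to 231 on the THP-1 arrays and at 36.1 to 73.6 on the HL-60 arrays. Its level went against the promyelocytic label, although it was above background on only 5 arrays. AZU1 (7.13-fold with diclofenac, 5.54-fold with DMSO), PRTN3 (3.65-fold, 3.15-fold), MS4A3 and CFD were also called higher in THP-1 cells. ELANE and CTSG were bright in both lines, with CTSG called lower in THP-1 cells (1.47-fold, 1.28-fold). Of the genes listed for the THP-1 leukemia program, FLT3 was higher in THP-1 cells (6.70-fold, 7.60-fold) and MEIS1 was lower (2.35-fold, 1.98-fold). The 7 promyelocytic markers summed to 48186 to 55289 in THP-1 cells and 31146 to 36616 in HL-60 cells. The 7 monocytic markers that were measured summed to 13965 to 18048 in THP-1 cells and 12749 to 16142 in HL-60 cells. Most of the monocytic sums was LYZ, at 11843 to 15365 in THP-1 cells and 12219 to 15569 in HL-60 cells. The 5 markers of other cells summed to 432 to 715 in THP-1 cells and 432 to 613 in HL-60 cells. EPCAM was above background on no array, CD79A on 4, CD3E and COL1A1 on 7 each, and HBB on all 8.

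Proteasome genes differed between the lines subunit by subunit, in both directions. With diclofenac in both lines, 11 of 37 members were higher in THP-1 cells and 9 were lower (limma, Benjamini-Hochberg adjusted p under 0.05), against 8.47% and 7.65% of all genes. With DMSO, 10 were higher and 9 were lower, against 9.27% and 9.42% of all genes. In either direction 54.1% of the members were called with diclofenac and 51.4% with DMSO, against 39.3% and 43.6% of the brightest 25% of all genes. The median difference over the members was -0.02 log2 with diclofenac and -0.14 with DMSO, against -0.00 and 0.03 over all genes. The group means of these 2 comparisons share no array. All arrays were normalized together and entered the same limma fit, with a shared variance for each probe set. The calls in the 2 comparisons are therefore not independent. In both, 16 members were called in the same direction, 9 higher and 7 lower. That was 80% of the members' calls with diclofenac and 84.2% of those with DMSO. Over all genes the shares of calls were 75.9% and 65.5%, and 12.2% of all genes were called in the same direction in both. In bulk RNA, fewer cells of a kind and less transcript per cell cannot be told apart.

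The number of calls depended on the scaling of the arrays, on single arrays and on the test's variance model, while most directions did not depend on the scaling. After quantile normalization the counts were as given. On the deposited scale, 5 members were higher and 8 lower with diclofenac, and 4 were higher and 10 lower with DMSO. There 15.8% of all genes were called with diclofenac and 16.3% with DMSO, where the median of all genes moved to 0.17. With each array centred on its median, only PSMC3 (higher) and PSMD10 (lower) were called with diclofenac and only PSMD10 with DMSO. Of all genes 5.72% and 6.34% were then called, and their median was -0.03 with diclofenac and -0.07 with DMSO. The signs of all 37 members with diclofenac held under both scalings, and with DMSO 6 members turned to lower in THP-1 under at least 1 of them: PSMB1, PSMB3, PSMB4, PSMB6, PSMC1 and PSME3. Without THP-1 DMSO replicate 2, PSMA1, PSMB3, PSMB4 and PSMD5 were no longer called with DMSO (-0.53, 0.25, 0.26 and -0.50) and PSMG1 was (-0.62). A larger share of all genes was called in that fit. Without any 1 of the diclofenac arrays, fewer members were called with diclofenac, and without an HL-60 DMSO array fewer were called with DMSO. In each of these fits a group held 1 array, and a smaller share of all genes was called too. With the variance not modelled on intensity, 8 members were called with diclofenac and 10 with DMSO, against 11.9% and 14.3% of all genes.

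**Figure D1:**
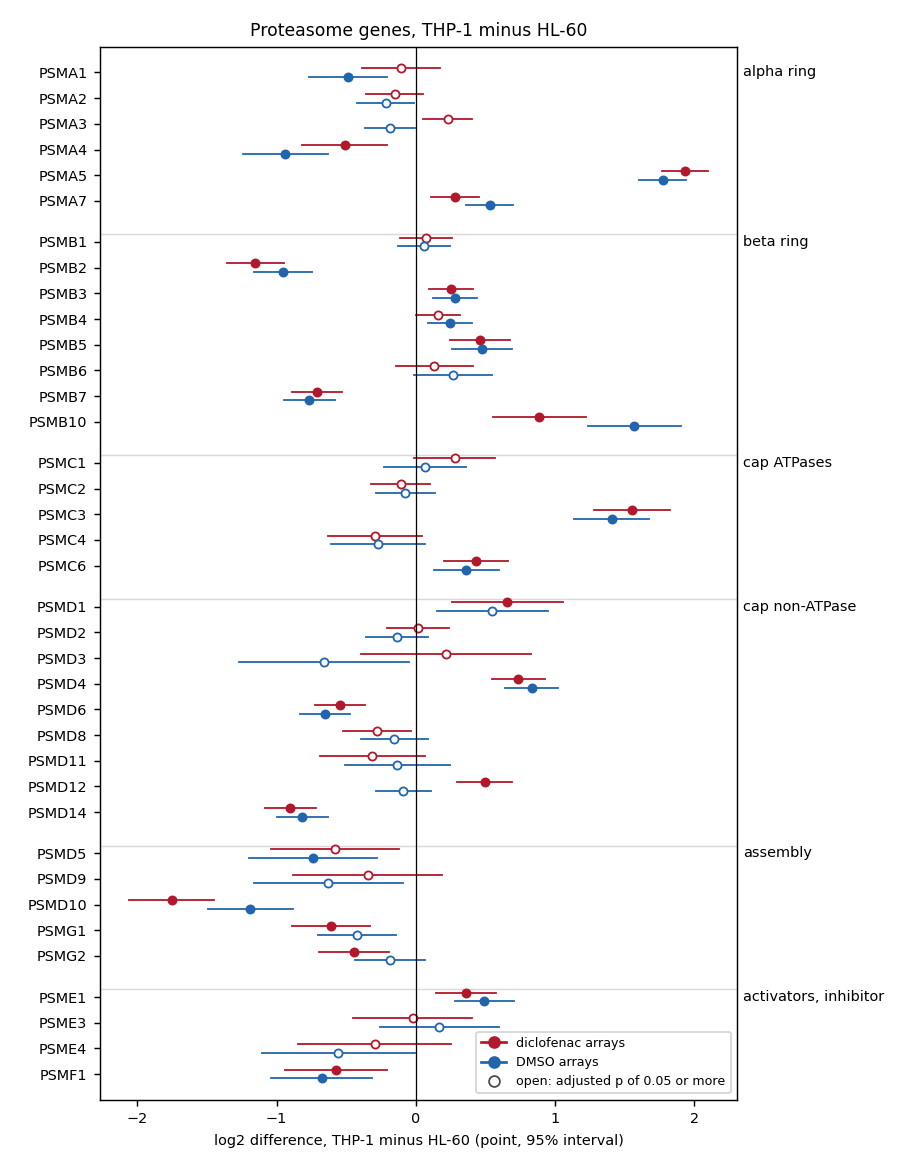
Log2 difference in normalized intensity, THP-1 minus HL-60, for each of the 37 proteasome genes by class, with diclofenac (red) and with DMSO (blue); points are the limma estimates, lines their 95% intervals, and filled points have an adjusted p under 0.05. PSMA5, PSMC3 and PSMB10 lie farthest to the right and PSMD10 and PSMB2 farthest to the left in the diclofenac arrays, and all 5 assembly genes lie left of 0 in both.

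In the alpha ring, whose subunits gate the entry to the core, one gene dominated. PSMA5 had normalized intensities of 9709 and 9942 in THP-1 cells against 2431 and 2647 in HL-60 cells with diclofenac, and 9305 and 9242 in THP-1 cells against 2682 and 2676 in HL-60 cells with DMSO. The lines did not overlap, and the THP-1 level was 3.82-fold higher with diclofenac (log2 difference 1.93, SE 0.07, adjusted p = 2.68e-06) and 3.42-fold higher with DMSO (1.77, SE 0.07, adjusted p = 3.45e-06). PSMA4 went the other way. It measured 6067 and 5111 in THP-1 cells against 7260 and 8707 in HL-60 cells with diclofenac, and 5556 and 4425 in THP-1 cells against 9384 and 9709 in HL-60 cells with DMSO. All THP-1 arrays lay below all HL-60 arrays, by 1.42-fold with diclofenac (log2 -0.51, adjusted p = 0.039) and 1.92-fold with DMSO (-0.94, adjusted p = 0.00194). PSMA7 was higher in THP-1 cells, at 4836 and 5250 against 4106 and 4164 in HL-60 cells with diclofenac and at 5610 and 5468 against 3825 and 3809 with DMSO. Its groups did not overlap, with differences of 0.28 (adjusted p = 0.0404) and 0.53 (adjusted p = 0.0018), but its second probe set was called in neither (0.16 and 0.57, adjusted p = 0.729 and 0.0602). From its brightest probe set PSMA1 was called lower in THP-1 cells with DMSO (-0.49, adjusted p = 0.0299) and had -0.11 with diclofenac (adjusted p = 0.751), whereas both its other probe sets were called lower with diclofenac too (-0.34 and -0.36, adjusted p = 0.0252 and 0.0234). PSMA2 and PSMA3 were called in neither, with log2 differences between -0.22 and 0.23.

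The beta ring carries the proteolytic sites, and its trypsin-like position showed opposite differences in the constitutive subunit PSMB7 and in PSMB10, the interferon-inducible subunit that takes its place. PSMB10 was at 1285 and 1411 in THP-1 cells against 696.7 and 714.4 in HL-60 cells with diclofenac, and at 1601 and 1423 in THP-1 cells against 428.6 and 526.8 in HL-60 cells with DMSO. It was 1.85-fold higher in THP-1 cells with diclofenac (log2 0.89, SE 0.15, adjusted p = 0.00461) and 2.97-fold higher with DMSO (1.57, SE 0.15, adjusted p = 0.000195), with no overlap. PSMB7 was at 2618 and 2532 in THP-1 cells against 4192 and 4290 in HL-60 cells with diclofenac, and at 2424 and 2327 in THP-1 cells against 4168 and 3967 in HL-60 cells with DMSO. It was 1.63-fold lower in THP-1 cells with diclofenac (-0.71, SE 0.08, adjusted p = 0.000572) and 1.7-fold lower with DMSO (-0.76, SE 0.08, adjusted p = 0.000347). No test compared the 2 genes with each other.

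Of the other catalytic subunits, PSMB5, the chymotrypsin-like subunit that proteasome inhibitor drugs bind, was higher in THP-1 cells. It measured 2035 and 2067 in THP-1 cells against 1477 and 1480 in HL-60 cells with diclofenac, and 2273 and 2103 in THP-1 cells against 1568 and 1550.1 in HL-60 cells with DMSO. The difference was 1.37-fold with diclofenac (log2 0.46, adjusted p = 0.0137) and 1.39-fold with DMSO (0.48, adjusted p = 0.0107), without overlap. PSMB6, the caspase-like subunit, was called in neither comparison, at 2880.3 and 2513 in THP-1 cells against 2328 and 2578 in HL-60 cells with diclofenac and at 2878 and 3525 against 2590.4 and 2682 with DMSO. Its 95% interval ran from -0.15 to 0.41 with diclofenac, where the lines overlapped, and from -0.01 to 0.55 with DMSO.

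PSMB2, a beta subunit without a catalytic site, had the largest fall in the ring. Its values were 3101 and 3412 in THP-1 cells against 7104 and 7473 in HL-60 cells with diclofenac, and 3764 and 3489 in THP-1 cells against 7506 and 6668 in HL-60 cells with DMSO. It was 2.22-fold lower in THP-1 cells with diclofenac (log2 -1.15, SE 0.09, adjusted p = 8.84e-05) and 1.94-fold lower with DMSO (-0.96, SE 0.09, adjusted p = 0.000217). A second PSMB2 probe set gave smaller differences of the same sign that did not pass the test, -0.32 with diclofenac (adjusted p = 0.381) and -0.23 with DMSO (adjusted p = 0.46). PSMB3 was 1.19-fold and 1.22-fold higher in THP-1 cells with diclofenac and with DMSO, and PSMB4 was called higher with DMSO (0.24, adjusted p = 0.0497) but not from its second probe set (0.11, adjusted p = 0.347). The brightest probe set of PSMB1 was called in neither comparison (0.07 and 0.06), and a second one above background on all arrays was called higher with diclofenac (0.29, adjusted p = 0.0262) and had -0.21 with DMSO (adjusted p = 0.0864).

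**Figure D2:**
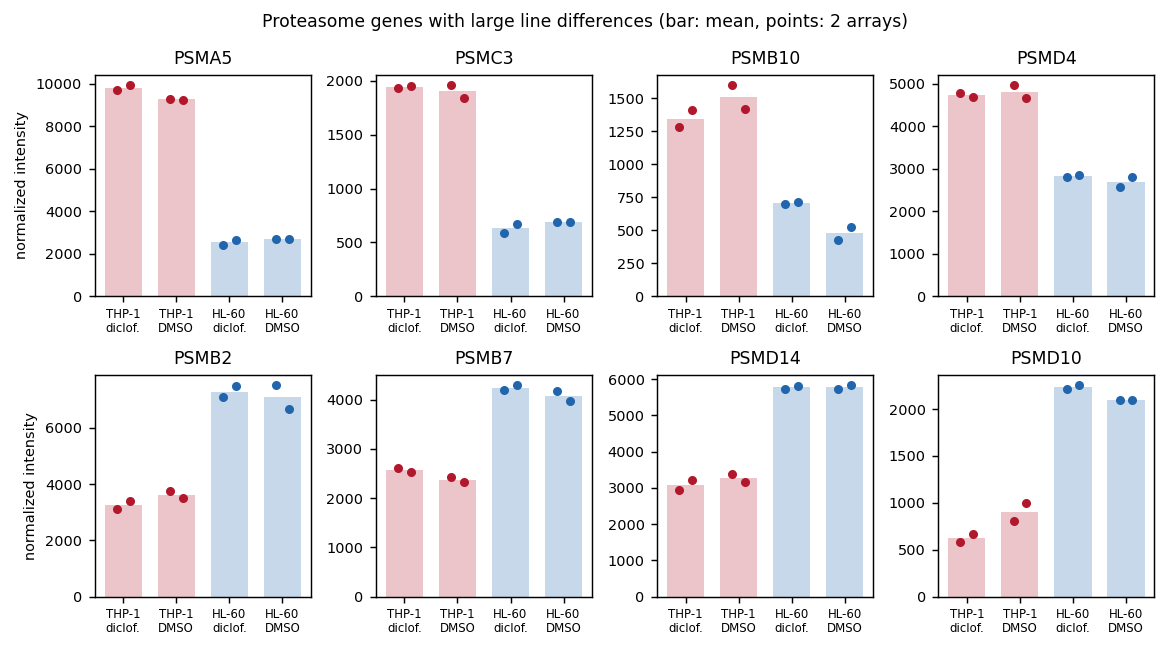
Normalized intensity on a linear axis from 0 for 8 proteasome genes, with THP-1 in red, HL-60 in blue and diclofenac left of DMSO in each line; bars are means and points the 2 arrays of a group. The top row holds genes that were higher in THP-1 cells on every array (PSMA5 at 9242 to 9942, against 2431 to 2682 in HL-60 cells), and the bottom row genes that were lower on every array (PSMD10 at 586.2 to 993.6, against 2095 to 2252 in HL-60 cells).

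Among the cap ATPases, which unfold the substrate, PSMC3 stood out. It measured 1939 and 1953 in THP-1 cells against 591.2 and 672.8 in HL-60 cells with diclofenac, and 1961 and 1844 in THP-1 cells against 685.3 and 688 in HL-60 cells with DMSO. The THP-1 level was 2.93-fold higher with diclofenac (log2 1.55, SE 0.12, adjusted p = 7.45e-05) and 2.65-fold higher with DMSO (1.41, SE 0.12, adjusted p = 0.000117). PSMC6 was higher by 0.43 with diclofenac (adjusted p = 0.0232) and by 0.36 with DMSO (adjusted p = 0.0439). PSMC1, PSMC2 and PSMC4, the other ATPases measured, were called in neither comparison, with differences between -0.29 and 0.28. The ATPases sit in 1 ring in equal numbers, and their transcripts showed unequal line differences on these arrays.

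The cap subunits that bind and process ubiquitin also went in opposite directions. PSMD4, a ubiquitin receptor, was at 4792 and 4679 in THP-1 cells against 2799 and 2850.2 in HL-60 cells with diclofenac, and at 4969 and 4664 in THP-1 cells against 2559 and 2812 in HL-60 cells with DMSO. It was 1.66-fold higher in THP-1 cells with diclofenac (log2 0.74, adjusted p = 0.000597) and 1.78-fold higher with DMSO (0.83, adjusted p = 0.000277). Both other PSMD4 probe sets above background on all arrays were called in the same direction, at 0.76 and 0.83 with diclofenac and 1.11 and 1.04 with DMSO, while a dim one above background on 2 arrays was not called (0.27 and -0.49). PSMD14, the deubiquitinase of the lid, was lower in THP-1 cells. It measured 2929 and 3204 in THP-1 cells against 5723 and 5816 in HL-60 cells with diclofenac, and 3384 and 3148 in THP-1 cells against 5740.4 and 5826 in HL-60 cells with DMSO. The fall was 1.87-fold with diclofenac (-0.90, adjusted p = 0.000165) and 1.76-fold with DMSO (-0.82, adjusted p = 0.000258).

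Of the structural cap subunits, PSMD6 of the lid was lower in THP-1 cells, at 3185 and 3238 against 4819 and 4611 in HL-60 cells with diclofenac and at 3155 and 3376 against 5297 and 5012 with DMSO. The differences were -0.55 (adjusted p = 0.00219) and -0.65 (adjusted p = 0.000814), without overlap. PSMD12, another lid subunit, was called with diclofenac from its brightest probe set, at 3425 and 3343 in THP-1 cells against 2326 and 2450 in HL-60 cells (0.49, adjusted p = 0.0061), and measured 3029 and 2915 against 3309 and 3021 with DMSO (-0.09, adjusted p = 0.552). Its second probe set, above background on all arrays, gave 0.09 with diclofenac (adjusted p = 0.855), and the call was lost when both were averaged. PSMD1, a scaffold of the base, was called higher with diclofenac (0.66, adjusted p = 0.0407) and had 0.55 with DMSO (adjusted p = 0.0714), while its second probe set gave 0.36 with diclofenac (adjusted p = 0.158). PSMD2, PSMD3, PSMD8 and PSMD11 were called in neither, with differences between -0.66 and 0.22. The lowest of these, PSMD3 with DMSO, was -0.20 without THP-1 DMSO replicate 2 (adjusted p = 0.383).

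The assembly chaperones taken by the symbol rule were the class with a single sign. All 5 had lower estimates in THP-1 cells in both comparisons, of which 3 passed the test with diclofenac and 2 with DMSO. POMP, an assembly chaperone outside the rule, had higher estimates in THP-1 cells that were not called. They were 0.25 with diclofenac (limma adjusted p = 0.0915) and 0.11 with DMSO (adjusted p = 0.439). PSMD10, known as gankyrin, which escorts an ATPase of the base and is overexpressed in liver cancer, was at 586.2 and 671.2 in THP-1 cells against 2218 and 2252 in HL-60 cells with diclofenac, and at 800.9 and 993.6 in THP-1 cells against 2097 and 2095 in HL-60 cells with DMSO. It was 3.37-fold lower in THP-1 cells with diclofenac (log2 -1.75, SE 0.13, adjusted p = 7.4e-05) and 2.28-fold lower with DMSO (-1.19, SE 0.13, adjusted p = 0.00054), and of all members it alone was called under all 18 alternative settings in both comparisons. PSMG1 and PSMG2, partners that start the alpha ring, were called lower with diclofenac (-0.61, adjusted p = 0.0119, and -0.45, adjusted p = 0.031) and had -0.42 (adjusted p = 0.0528) and -0.19 (adjusted p = 0.32) with DMSO. PSMD5 was called with DMSO (-0.74, adjusted p = 0.041) but not without the THP-1 DMSO array that stood apart (-0.50, adjusted p = 0.060), and had -0.58 with diclofenac (adjusted p = 0.11), which was called when that array was left out of the fit (-0.60, adjusted p = 0.0113). PSMD9, the remaining chaperone of the base, had -0.35 with diclofenac and -0.63 with DMSO, neither called, and without that array -0.24 with DMSO (adjusted p = 0.285).

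Among the activators and the inhibitor, PSME1, a subunit of the interferon-inducible activator PA28, was higher in THP-1 cells. It measured 2597 and 2789 in THP-1 cells against 2029 and 2147 in HL-60 cells with diclofenac, and 2917 and 2710.2 in THP-1 cells against 2039 and 1928 in HL-60 cells with DMSO. The differences were 0.36 (adjusted p = 0.0383) and 0.49 (adjusted p = 0.00848). PSMF1, which inhibits the core in the test tube, was lower, at 867.8 and 876.3 in THP-1 cells against 1435 and 1219 in HL-60 cells with diclofenac and at 899.7 and 670.1 against 1249.7 and 1295 with DMSO. Its differences were -0.57 (adjusted p = 0.0499) and -0.68 (adjusted p = 0.0225), and its second probe set was called in the same direction with -1.18 and -0.82. PSME3, a nuclear activator, overlapped between the lines, at 1386 and 1262 in THP-1 cells against 1398 and 1295 in HL-60 cells with diclofenac and at 1320 and 2063 against 1500 and 1428 with DMSO. Its difference with DMSO was 0.17, and -0.15 without THP-1 DMSO replicate 2. Other PSME3 probe sets ran from -0.10 to 0.23 with diclofenac and from -1.38 to 0.33 with DMSO, none called. The one with -1.38 was at 41.5 on THP-1 DMSO replicate 2 and 389.7 on replicate 1. PSME4, an activator with a role in histone degradation, was not called either, at 913.9 and 1210 in THP-1 cells against 1230 and 1376 in HL-60 cells with diclofenac and at 1215 and 718.2 against 1261 and 1556 with DMSO (-0.29 and -0.56, the second -0.20 without THP-1 DMSO replicate 2). Its other probe sets, above background on all arrays, had -0.61 and -0.06 with diclofenac and 0.23 and -0.14 with DMSO, none called.

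**Figure D3:**
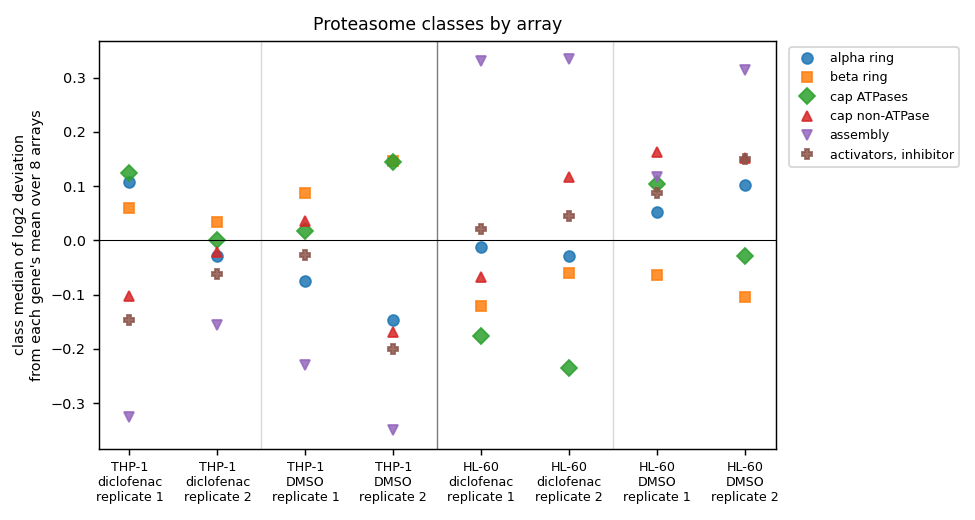
Median, over the genes of each proteasome class, of the log2 deviation from the gene's own mean over the 8 arrays, for each array with THP-1 left of HL-60 and diclofenac left of DMSO. The assembly class (purple triangles) lies below 0 on all 4 THP-1 arrays and above 0 on all 4 HL-60 arrays, and the other classes stay within 0.24 of 0.

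Second probe sets were available for 16 of the 37 members, while the other 21, among them PSMA5, PSMB7, PSMB10, PSMC3, PSMD10 and PSMD14, had 1 each. Of the 23 further probe sets, 17 were above background on all arrays, and of these all 17 with diclofenac and 15 with DMSO had the sign of the gene's brightest one. Of the 37 representatives, 16 carry a suffix of probe sets that can bind more than 1 transcript: 4 the suffix x (PSMA1, PSMA7, PSMD4 and PSME3) and 12 the suffix s, among them PSMB2, PSMC3, PSMD10 and PSMD12.

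The members lie on 17 chromosomes. Chromosome 14 holds 5 of them, of which PSMB5, PSMC6 and PSME1 were called higher in THP-1 cells in both comparisons, none was called lower, and PSMA3 and PSMC1 were not called. Chromosome 1 holds PSMA5, PSMB4 and PSMD4, which were called higher in at least 1 comparison, and PSMB2, which was called lower in both. Chromosome 17 holds 6, of which 2 were called higher with diclofenac and 1 with DMSO, and none lower. Over all genes, 8.47% were called higher and 7.65% lower with diclofenac, and 9.27% and 9.42% with DMSO. Shares over all genes of each chromosome were not computed, so these counts show no chromosomal pattern. No copy number was measured, and its part was not tested.

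The promoters of 5 members are printed because these genes stood at the ends of the line difference, PSMA5, PSMC3 and PSMB10 being higher in THP-1 cells and PSMB2 and PSMD10 lower. Each covers 250 bases before the annotated start and 50 after it, read 5′ to 3′ along the gene's strand, from RefSeq on build GRCh38.p14. Capitals mark CCAAT, the box bound by NF-Y, on either strand (ATTGG is its other strand), and in PSMB10 they mark GAAANNGAA, the core of the interferon-stimulated response element.
PSMA5, chr1:109426399-109426698, - strand: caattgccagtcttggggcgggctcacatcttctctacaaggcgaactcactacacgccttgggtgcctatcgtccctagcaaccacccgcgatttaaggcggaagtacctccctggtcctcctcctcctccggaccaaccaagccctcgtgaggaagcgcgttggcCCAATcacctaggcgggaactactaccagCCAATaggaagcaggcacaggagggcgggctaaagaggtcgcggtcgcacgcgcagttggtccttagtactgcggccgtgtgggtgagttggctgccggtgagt
PSMC3, chr11:47426390-47426689, - strand: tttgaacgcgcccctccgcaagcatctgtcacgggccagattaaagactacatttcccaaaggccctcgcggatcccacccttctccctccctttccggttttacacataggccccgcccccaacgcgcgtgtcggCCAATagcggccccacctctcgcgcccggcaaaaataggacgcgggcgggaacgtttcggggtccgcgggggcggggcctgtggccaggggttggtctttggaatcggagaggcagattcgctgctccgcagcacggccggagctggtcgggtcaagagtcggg
PSMB10, chr16:67936801-67937100, - strand: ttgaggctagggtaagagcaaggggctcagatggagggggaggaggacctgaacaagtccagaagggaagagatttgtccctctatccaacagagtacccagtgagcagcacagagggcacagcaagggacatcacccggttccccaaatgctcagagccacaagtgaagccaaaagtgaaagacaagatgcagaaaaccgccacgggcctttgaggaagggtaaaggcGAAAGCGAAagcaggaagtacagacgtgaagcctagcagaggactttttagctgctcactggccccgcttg
PSMB2, chr1:35641477-35641776, - strand: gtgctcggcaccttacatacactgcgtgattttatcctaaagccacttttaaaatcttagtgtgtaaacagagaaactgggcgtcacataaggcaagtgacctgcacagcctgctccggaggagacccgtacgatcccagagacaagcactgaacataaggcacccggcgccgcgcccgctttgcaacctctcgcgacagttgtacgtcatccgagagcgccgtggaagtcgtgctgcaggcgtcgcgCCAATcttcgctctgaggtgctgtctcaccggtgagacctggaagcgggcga
PSMD10, chrX:108091493-108091792, - strand: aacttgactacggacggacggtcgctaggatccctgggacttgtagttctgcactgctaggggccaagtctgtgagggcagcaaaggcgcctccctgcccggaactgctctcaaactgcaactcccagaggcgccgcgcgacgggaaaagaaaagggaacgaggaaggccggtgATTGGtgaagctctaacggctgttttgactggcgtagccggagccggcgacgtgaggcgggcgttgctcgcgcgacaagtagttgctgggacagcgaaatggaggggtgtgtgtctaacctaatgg

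CCAAT was found in promoters of both directions: 2 matches in PSMA5, 1 in PSMC3, 1 in PSMB2 and 1 in PSMD10, with none in this window of PSMB10. Promoters were listed for 32 of the 37 members, 38 in all since some genes have several starts, and for 35116 starts in the whole table. Both strands of each were searched. CCAAT was in 42.1% of the members' promoters and 34.6% of all. GAAANNGAA was in 13.2% of the members' promoters (1 start each of PSMA4, PSMB4, PSMB10, PSMC2 and PSME1) and 8.11% of all. TGACNNNGC, the core of the antioxidant response element that NRF1 and NRF2 bind with their partners, was in 31.6% of the members' promoters and 13.3% of all, and in none of the 5 printed. Matches of different motifs overlapped in 0 of the 38 members' promoters. A match is only a run of letters, and these shares were not tested.

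The diclofenac comparisons asked whether 48 h of the drug moved these genes within a line. No member passed the test: 0 of 37 were called in THP-1 cells, where 0.184% of all genes were, and 0 of 37 in HL-60 cells, where 0.00836% were (limma, Benjamini-Hochberg adjusted p under 0.05). At an unadjusted p under 0.05, 3 members in THP-1 cells and 4 in HL-60 cells passed, against 11.8% and 4.59% of all genes. For the average of both lines 0 were called (0.15% of all genes) and 4 had an unadjusted p under 0.05 (8.01%), and for the difference between the lines' changes 0 were called (0% of all genes) and 6 had an unadjusted p under 0.05 (7.38%). The changes were small: the median was -0.04 log2 in THP-1 cells and -0.07 in HL-60 cells, against -0.01 and -0.00 over all genes, although relative to all genes both turned positive without quantile normalization (0.27 and 0.07). The 95% interval lay within 1.5-fold in either direction for 30 of 37 members in THP-1 cells and 29 of 37 in HL-60 cells, and for 34 of 37 in the average. Without THP-1 DMSO replicate 2, the members' median change in THP-1 cells was -0.06, against -0.01 over all genes. Without replicate 1 of that group, the array with the high background was the only THP-1 control. The members' median was then 0.00, against -0.01 over all genes. Each of these fits holds 1 THP-1 control array, so its calls rest on a spread assumed for that array.

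Arrays of the 2 treatments did not overlap for 6 members higher and 10 lower with diclofenac in THP-1 cells, where 19.3% and 21.2% of all genes did so. In HL-60 cells, 7 were higher and 16 lower without overlap, where 20.5% and 19.7% of all genes did so. With 2 arrays a group such separation is common, and none of these members passed the test.

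**Figure D4:**
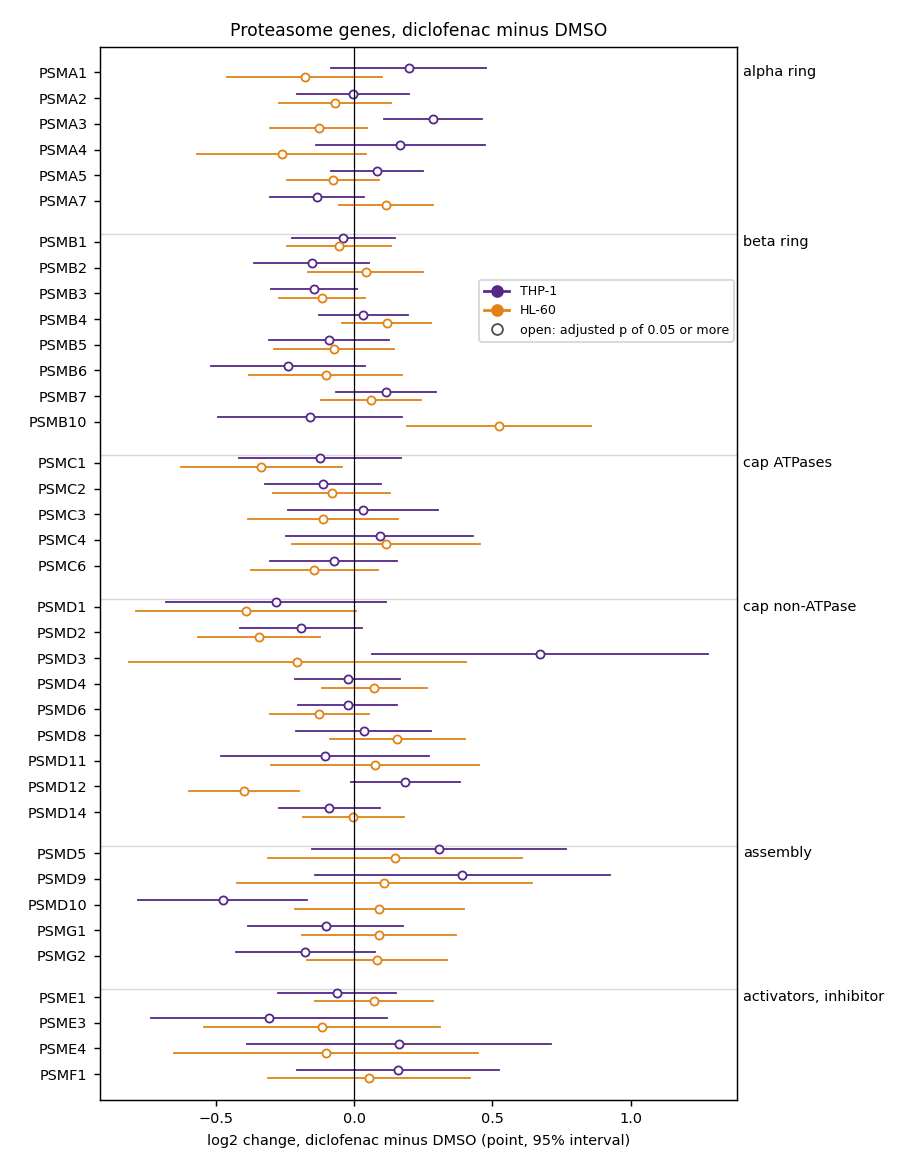
Log2 change with diclofenac (diclofenac minus DMSO) in THP-1 cells (purple) and HL-60 cells (orange) for the 37 proteasome genes by class; points are the limma estimates, lines their 95% intervals, and all points are open because no adjusted p was under 0.05. Estimates run from -0.48 (PSMD10) to 0.67 (PSMD3) in THP-1 cells and from -0.40 (PSMD12) to 0.52 (PSMB10) in HL-60 cells.

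The core held small estimates apart from 1 gene. In THP-1 cells the alpha ring ran from -0.14 to 0.28, with PSMA3 at 5349 and 4836 with diclofenac against 4140.0 and 4192 with DMSO (0.28, adjusted p = 0.307), and the beta ring from -0.24 to 0.11. In HL-60 cells the alpha ring ran from -0.26 to 0.11 and the beta ring from -0.12 to 0.52. The catalytic subunits PSMB5, PSMB6 and PSMB7 had -0.09, -0.24 and 0.11 in THP-1 cells and -0.07, -0.10 and 0.06 in HL-60 cells. PSMB10 held the highest estimate in HL-60 cells, where 696.7 and 714.4 with diclofenac lay above 428.6 and 526.8 with DMSO (1.44-fold, log2 0.52, SE 0.15, unadjusted p = 0.00653, adjusted p = 0.764). In THP-1 cells it was lower with diclofenac, at 1285 and 1411 against 1601 and 1423 (-0.16, adjusted p = 0.643). Neither change passed the test, nor did the difference between them (-0.68, adjusted p = 0.537).

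In the cap, most estimates of HL-60 cells were below 0. PSMD12 had the lowest, with 2326 and 2450 with diclofenac against 3309 and 3021 with DMSO (log2 -0.40, SE 0.09, unadjusted p = 0.00152, adjusted p = 0.591). From this brightest probe set it was higher with diclofenac in THP-1 cells, at 3425 and 3343 against 3029 and 2915 (0.18, adjusted p = 0.478). Its second probe set, above background on all arrays, had -0.31 in HL-60 cells and -0.10 in THP-1 cells, where the treatments overlapped. Neither was called. PSMD1 and PSMD2, scaffolds of the base, had lower values with diclofenac in both lines. PSMD1 was at 1780.3 and 1903 with diclofenac against 2122 and 2386 with DMSO in THP-1 cells and at 932.8 and 1411 against 1535 and 1509 in HL-60 cells, changes of -0.28 and -0.39. PSMD2 was at 2353 and 2332 with diclofenac against 2732 and 2638 with DMSO in THP-1 cells and at 2476 and 2165 against 3059 and 2850.2 in HL-60 cells, changes of -0.19 and -0.34. Neither gene passed the test in either line, with adjusted p from 0.492 to 1.00. PSMD8 of the lid, among the 3 highest estimates in HL-60 cells, measured 2763 and 3159 with diclofenac against 2595 and 2699 with DMSO (0.16, adjusted p = 1.00).

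Several of the widest THP-1 estimates rested on the array that stood apart. PSMD3, a lid subunit, was at 944.2 and 1026 with diclofenac against 847.2 and 420 with DMSO in THP-1 cells (log2 0.67, SE 0.27, adjusted p = 0.441), and without THP-1 DMSO replicate 2 the change was 0.21. The assembly chaperones PSMD9 and PSMD5 had 958.2 and 893 against 925.2 and 517.7, and 543.6 and 561.1 against 530.3 and 358.8, changes of 0.39 and 0.31 that became -0.00 and 0.06 without it. PSME3 was at 1386 and 1262 with diclofenac against 1320 and 2063 with DMSO, a change of -0.31 that became 0.00. The higher background of that array moved with these 4 values, and its part in them was not tested.

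PSMD10 had the lowest THP-1 estimate, with 586.2 and 671.2 with diclofenac against 800.9 and 993.6 with DMSO (1.39-fold lower, log2 -0.48, SE 0.13, unadjusted p = 0.00672, adjusted p = 0.314), and -0.34 without THP-1 DMSO replicate 2. In HL-60 cells it was at 2218 and 2252 with diclofenac against 2097 and 2095 with DMSO (0.09). All 5 assembly genes had estimates above 0 in HL-60 cells, 0.08 to 0.15, and 2 of 5 in THP-1 cells, and none passed the test. The activators and the inhibitor ran from -0.31 to 0.16 in THP-1 cells and from -0.12 to 0.07 in HL-60 cells, with PSME1 at -0.06 and 0.07. Other probe sets in THP-1 cells ran from -0.66 to -0.18 for PSME4 and from -0.31 to 1.46 for PSME3, none called. PSMD14 had -0.09 in THP-1 cells and -0.00 in HL-60 cells.

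**Figure D5:**
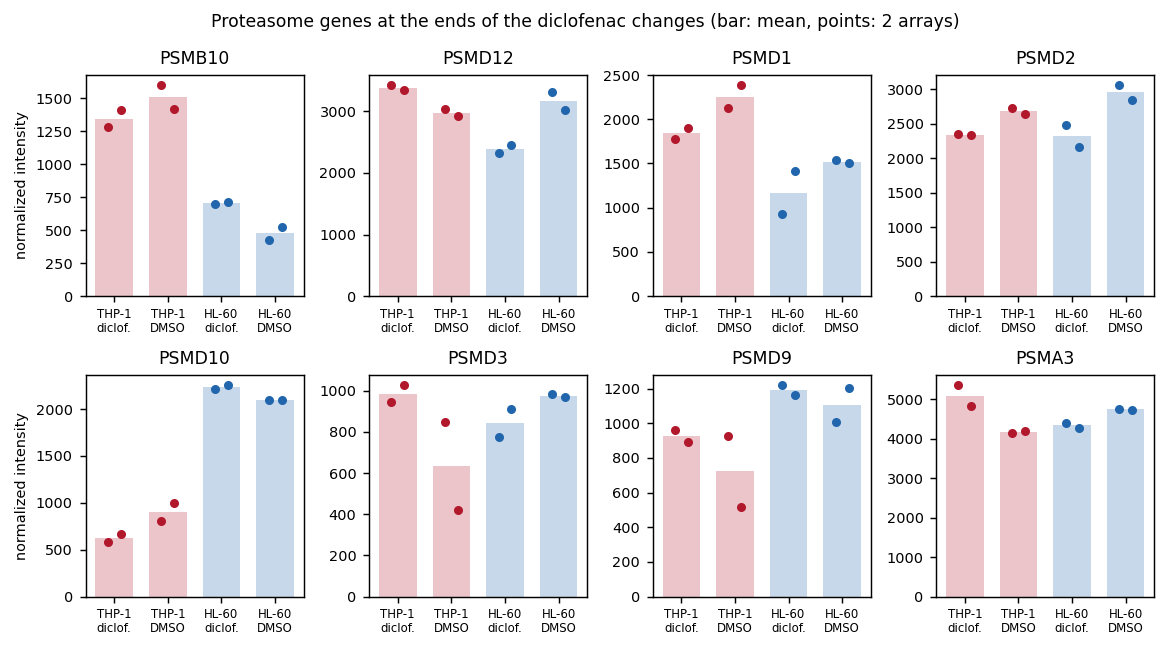
Normalized intensity on a linear axis from 0 for 8 proteasome genes at the ends of the diclofenac changes, with THP-1 in red, HL-60 in blue and diclofenac left of DMSO in each line; bars are means and points the 2 arrays of a group. PSMB10 is higher with diclofenac in HL-60 cells (696.7 and 714.4, against 428.6 and 526.8 with DMSO), and for PSMD3 and PSMD9 1 THP-1 DMSO array lies far below the other (420 against 847.2, and 517.7 against 925.2).

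Of 51 other genes of the ubiquitin and proteasome pathway that were listed, 39 were measured. None was called with diclofenac in either line, where 0.184% of all genes were in THP-1 cells and 0.00836% in HL-60 cells. At an unadjusted limma p under 0.05, 5 passed in THP-1 cells and 4 in HL-60 cells, against 11.8% and 4.59% of all genes. NFE2L1, the gene of the regulator NRF1, was at 782.5 and 669 with diclofenac against 623.7 and 609.1 with DMSO in THP-1 cells (log2 0.22, adjusted p = 0.556) and at 703.2 and 757.1 against 809.9 and 783.8 in HL-60 cells (-0.12, adjusted p = 1.00). POMP, the chaperone that joins the half-cores, had 0.02 and -0.12. The highest and lowest estimates in THP-1 cells were those of MAFF (1.04), ERAP1 (0.95), PAAF1 (0.79), TAP2 (-0.38), NGLY1 (-0.21) and NPLOC4 (-0.18), and in HL-60 cells those of ERAP1 (0.34), UBE3A (0.27), FAF1 (0.21), SEM1 (-0.40), MAFF (-0.33) and UBA1 (-0.30). With the outlying THP-1 DMSO array left out, MAFF and ERAP1 had 0.50 each in THP-1 cells, PAAF1 -0.08 and TAP2 0.03.

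Between the lines, 13 of these 39 pathway genes were called with diclofenac (5 higher and 8 lower in THP-1 cells) and 16 with DMSO (7 higher and 9 lower). These were 33.3% and 41% of them, against 16.1% and 18.7% of all genes and 39.3% and 43.6% of the brightest 25%. Without THP-1 DMSO replicate 2, more of them were called with diclofenac and as many with DMSO. The share of all genes called rose in both comparisons in that fit. Deubiquitinases bound to the cap were lower in THP-1 cells, as PSMD14 was: USP14 had -0.85 with diclofenac and -0.74 with DMSO (adjusted p = 0.000715 and 0.00141), and UCHL5 had -0.56 and -0.63 (adjusted p = 0.00278 and 0.00141). ADRM1, the cap subunit that receives ubiquitin and holds UCHL5, was higher, by 0.52 and 0.69 (adjusted p = 0.0391 and 0.01), as the receptor PSMD4 was. TXNL1, a thioredoxin-like protein of the cap, was 2.03-fold lower with diclofenac and 2.13-fold lower with DMSO. UBA1, the main ubiquitin-activating enzyme, was at 1083 and 1285 in THP-1 cells against 3397 and 3067 in HL-60 cells with diclofenac, and at 1435 and 1252 in THP-1 cells against 4244 and 3764 in HL-60 cells with DMSO. It was 2.67-fold and 2.91-fold lower (adjusted p = 0.000164 and 9.77e-05). VCP, the segregase that extracts ubiquitinated proteins, had -0.37 and -0.54, its cofactor NSFL1C -1.03 and -1.36, and the shuttle UBQLN2 -0.91 and -0.85, all 3 called in both comparisons. UBB, a ubiquitin gene, was higher by 0.48 and 0.34, and NFE2L2, the gene of NRF2, by 0.66 and 0.32, although with DMSO NFE2L2 turned to -0.02 under median centring and was not called without THP-1 DMSO replicate 2 (0.27, adjusted p = 0.0863).

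Downstream of the proteasome in antigen processing, TAP2, a subunit of the peptide transporter, and ERAP1, which trims peptides, were higher in THP-1 cells from their brightest probe sets. TAP2 had 1.74 with diclofenac and 2.16 with DMSO (adjusted p = 0.0053 and 0.00154), and ERAP1 2.35 and 1.75 (adjusted p = 0.00227 and 0.00949), but the direction of TAP2 with diclofenac and of ERAP1 in both turned with another probe set. UBE3A (0.70), MAFG (0.58), UBE3C (-0.75) and RAD23B (-0.46) were called with DMSO alone, and NGLY1 (-0.38) with diclofenac alone; UBE3A and NGLY1 turned sign in those comparisons with another probe set. Without THP-1 DMSO replicate 2, UBE3C (-0.44, adjusted p = 0.0592) and RAD23B (-0.35, adjusted p = 0.053) were no longer called with DMSO, and UBE3A, MAFG and RAD23B were called with diclofenac. That a call fell in 1 of the comparisons does not show that the line difference changed with the drug: the test of that difference called no member and none of these genes.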

How the data were processed

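Intensities per probe set were used as deposited in the series' value table for 8 arrays. Per the labels' protocols, biotin-labelled cRNA from total RNA was hybridised; the software that made the intensity values is not given in the sources used here, and they were linear, from 0.1 to 39371. Intensities plus an offset of 50 were put on the log2 scale and quantile-normalized, and "normalized intensity" is that value back on the linear scale. Control probe sets (62 of 22277) were left out. Probes were named from GEO's platform annotation: 19064 probe sets had 1 symbol, 1043 several and 2108 none listed, and none was named from several. Genes with several symbols per probe set only, and some genes of the family, are not analysed here.

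All 8 arrays entered 1 limma fit of group means (version 3.58.1, R version 4.3.3) (4 residual and 4.41 prior degrees of freedom, intensity trend), with Benjamini-Hochberg adjustment over 22215 probe sets and a threshold of 0.05. Fold changes of dim genes are understated by the offset. A probe set counted as above background on an array when it exceeded percentile 95 of 27 bacterial controls there. The script was tested on simulated data. With 2 arrays a group, the number of arrays limits the precision. Deviations of arrays sharing a replicate number correlated at -0.01 in THP-1 and -0.00 in HL-60, so the numbers do not pair them. Figures were drawn with matplotlib 3.10.9. The members, lists and alternatives were chosen with earlier results of these data known. Named with arrays' values were the catalytic subunits, activators, inhibitor, PSMD14, up to 12 called members per contrast with the smallest p, and the 3 highest and lowest estimates.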

Additional observations from a re-analysis of the deposited data

Results flagged for a closer look

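For 7 of the 37 members (18.9%), both diclofenac arrays lay on one side of both DMSO arrays in THP-1 cells and on the other side in HL-60 cells, which held for 961 of 11963 genes (8.03%). The THP-1 change minus the HL-60 change was 0.41 log2 for PSMA3, 0.16 for PSMA5, -0.25 for PSMA7, -0.68 for PSMB10, 0.88 for PSMD3, 0.58 for PSMD12 and -0.57 for PSMD10. The limma test of that difference called none of them, with adjusted p from 0.364 for PSMD12 to 0.773 for PSMA5. These values are from the brightest probe sets. The second PSMD12 probe set gave 0.21, with negative estimates in both lines, and the second PSMA7 probe set gave -0.41. The PSMD3 value rests on THP-1 DMSO replicate 2 and was 0.42 without it; the others were 0.43, 0.16, -0.27, -0.79, 0.57 and -0.43 for PSMA3, PSMA5, PSMA7, PSMB10, PSMD12 and PSMD10. Groups of 2 arrays are too small for a test of outlying arrays.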

How the results depend on the processing

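Without quantile normalization, 51 probe sets in THP-1 cells, 2 in HL-60 cells and 2 for the difference of the changes were called (30, 1 and 1 with it), and 13 members with diclofenac differed between the lines. With median centring, 0 probe sets were called in any diclofenac contrast, and the lines differed in 1028 probe sets and 2 members with diclofenac and in 1147 probe sets and 1 member with DMSO. Under both scalings the members' median relative to all genes was 0.275 in THP-1 cells, 0.0691 in HL-60 cells, 0.20 in the average, 0.16 in the difference and -0.40 between the lines with DMSO (-0.03, -0.07, -0.03, 0.03 and -0.16 after quantile normalization). Centring turned PSMB3, PSMB4 and NFE2L2 to -0.0934, -0.128 and -0.0166 with DMSO. Leaving out the dimmest 40% gave 53 probe sets in THP-1 cells and 3 in HL-60 cells, and relative medians of -0.0715 in THP-1 cells, -0.0191 for the difference and -0.105 between the lines with DMSO. Without the intensity trend, 0 probe sets were called in the 4 diclofenac contrasts, and 8 members with diclofenac and 10 with DMSO differed between the lines. Array weights gave 14 probe sets in THP-1 cells, 28 in HL-60 cells and 0 for the difference, and between the lines 5753 with diclofenac and 1821 with DMSO (2890.0 and 3402 in the fit reported), with 11 members for DMSO. Fitting each line alone gave 0 probe sets in THP-1 cells and 3 in HL-60 cells. With replicate number as a block, 15 probe sets in THP-1 cells, 9 in the average and 0 for the difference were called, with 15 members between the lines with diclofenac and 16 with DMSO.

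With probe sets that can bind several transcripts used last, relative medians were -0.00851 in HL-60 cells, 0.0864 for the difference, and between the lines 0.0217 with diclofenac and -0.211 with DMSO; PSMD4, UBE3A and ERAP1 turned to -0.492, -0.182 and -0.0743 with DMSO, and NGLY1, ERAP1 and TAP2 to 0.387, -0.270 and -0.518 with diclofenac. With all probe sets of a gene averaged, the relative median with diclofenac was 0.0232 between the lines, NGLY1 turned to 0.00366 and ERAP1 to -9.56e-05. An offset of 16 or none kept every count of calls within 1.5 times. After quantile normalization, replacing all genes by the brightest 25%, a choice made after seeing the data, moved no relative median by more than the spread between arrays. Without quantile normalization, the members' median in THP-1 cells was 0.12, against 0.10 over the brightest 25% and -0.15 over all genes.

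With 1 array left out, the lone array of a group is assumed to vary like the others. Probe sets called ranged from 0 to 6898 in THP-1 cells, 0 to 11 in HL-60 cells, 1 to 4653 in the average, 0 to 4036 for the difference, and between the lines 1260 to 5098 with diclofenac and 1693 to 9093 with DMSO. Members called were 0 to 7 in THP-1 cells, 0 to 0 in HL-60 cells, 0 to 8 in the average and 0 to 6 for the difference; the highest counts all came without THP-1 DMSO replicate 1, which leaves the array with the high background as the only THP-1 control. Between the lines, members called ranged from 9 to 22 with diclofenac and from 11 to 25 with DMSO. With diclofenac they were 9 to 13 without any single array other than those of THP-1 DMSO, and with DMSO they were 12 and 11 without HL-60 DMSO replicates 1 and 2. Relative medians ranged from -0.0538 to 0.0107 in THP-1 cells, -0.0748 to -0.0217 in HL-60 cells, -0.0540 to 0.00483 in the average, -0.0131 to 0.060 for the difference, and between the lines -0.0844 to 0.0483 with diclofenac and -0.215 to -0.100 with DMSO. Of the calls between the lines, 2 of 20 with diclofenac (PSMC3 and PSMD10) and 1 of 19 with DMSO (PSMD10) stood under all 18 alternatives, and 6 and 9 under all but at most 1. The causes were not tested. With 2 arrays a group, changes under about 1.5-fold cannot be told from none for most genes.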
